A study of Homo sapiens with 2 samples.

Results

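The genes described here are 40 components and targets of the canonical WNT pathway, taken by symbol from the GENCODE annotation of GRCh38, out of 19970 protein-coding genes on chromosomes 1 to 22 and X. All 40 symbols were found. A peak belonged to a gene when its summit lay in the annotated gene or within 1 kb of one of its transcription start sites (TSSs), and 128 of the 33353 peaks in the authors' list did so. The peaks come from 1 chromatin immunoprecipitation (ChIP) library made with an antibody against H4R3me2a, called against 1 library of input DNA, both from HCT116 cells without drug treatment. HCT116 is an established colorectal carcinoma line of colon origin, and it is the only line measured. Chromatin was fixed with formaldehyde and sheared by sonication. Total reads per library are not given, so depth is known only from the fragments at each peak. There was 1 library per group, so no value has a replicate check and no test was possible, and all intervals cover counting error only.

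H4R3me2a is histone H4 carrying an asymmetrically dimethylated arginine 3, placed mainly by the enzyme PRMT1 and usually described as a mark of active chromatin. In the canonical WNT pathway, a destruction complex built on AXIN and APC lets the kinases CK1 and GSK3 phosphorylate beta-catenin, which is then degraded. A WNT ligand that binds a Frizzled receptor and LRP5 or LRP6 recruits Dishevelled and stops that complex, and beta-catenin then enters the nucleus and activates target genes with TCF/LEF factors. In the intestine the pathway maintains crypt stem cells, and in colorectal cancer it is commonly active through loss of APC. HCT116 cells instead carry an activating mutation of the beta-catenin gene itself.

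The 3 stretches below, read from GRCh38 on the strand of each gene, are chosen examples of CpG-dense sequence under peaks near starts. Medians for each class of peak are given further below. They lie around the summits of a peak just inside AXIN1, a peak just inside the target gene EPHB2 and a peak at an internal TSS of BCL9. Capitals mark CpG dinucleotides.
AXIN1 chr16:351960-352159 minus strand: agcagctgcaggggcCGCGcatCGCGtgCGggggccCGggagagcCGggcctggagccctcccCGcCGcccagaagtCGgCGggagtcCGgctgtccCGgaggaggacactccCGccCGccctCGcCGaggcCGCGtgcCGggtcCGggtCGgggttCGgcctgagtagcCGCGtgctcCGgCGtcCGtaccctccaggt
EPHB2 chr1:22711252-22711451 plus strand: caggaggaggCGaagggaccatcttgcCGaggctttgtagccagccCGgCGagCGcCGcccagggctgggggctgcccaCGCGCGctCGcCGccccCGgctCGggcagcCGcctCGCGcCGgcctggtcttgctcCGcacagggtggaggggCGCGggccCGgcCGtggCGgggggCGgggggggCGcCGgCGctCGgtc
BCL9 chr1:147600161-147600360 plus strand: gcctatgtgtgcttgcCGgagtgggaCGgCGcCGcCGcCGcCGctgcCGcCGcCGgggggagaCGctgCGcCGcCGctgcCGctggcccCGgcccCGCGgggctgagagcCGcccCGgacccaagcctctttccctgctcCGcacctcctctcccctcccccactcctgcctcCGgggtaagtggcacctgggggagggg
Each stretch is 200 bp long, and that of BCL9 overlaps the first exon of a transcript without a defined coding sequence. The AXIN1 stretch held 28 CpGs at 78% GC, that of EPHB2 28 CpGs at 81% GC and that of BCL9 22 CpGs at 78% GC. None of the 32-mers within 100 bp of these 3 summits occurs more than once in the genome.

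At least 1 peak was assigned to 31 of the 40 genes (77.5%, 95% exact interval 61.5 to 89.2%), and the same rule gave a peak to 47.2% of all protein-coding genes. A peak within 1 kb of the annotated 5' end was found at 12 genes (30%, 16.6 to 46.5%), beside 19.2% of all protein-coding genes. A peak within 1 kb of an internal TSS, meaning any other annotated start, was found at 16 (40%, 24.9 to 56.7%), beside 18.1%. A peak elsewhere in the gene body was found at 25 (62.5%, 45.8 to 77.3%), beside 32.8%. By this count 11 genes (27.5%, 14.6 to 43.9%) had an internal-TSS peak without one at the 5' end, beside 12.4% of all genes. Body peaks alone were found at 8 (20%, 9.05 to 35.6%), beside 15.6%, which lies inside that interval. No peak was found at 9 (22.5%, 10.8 to 38.5%), beside 52.8%. The internal-TSS count depends on the fold required of a peak. With a fold of 4 or more it was 8 of 40 genes (20%), beside 13.2% of all genes. The 5'-end count depends on the window. Within 500 bp of the 5' end it was 3 of 40 genes, beside 9.83% of all genes, and within 3 kb it was 21, beside 30.8%.

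**Figure D1:**
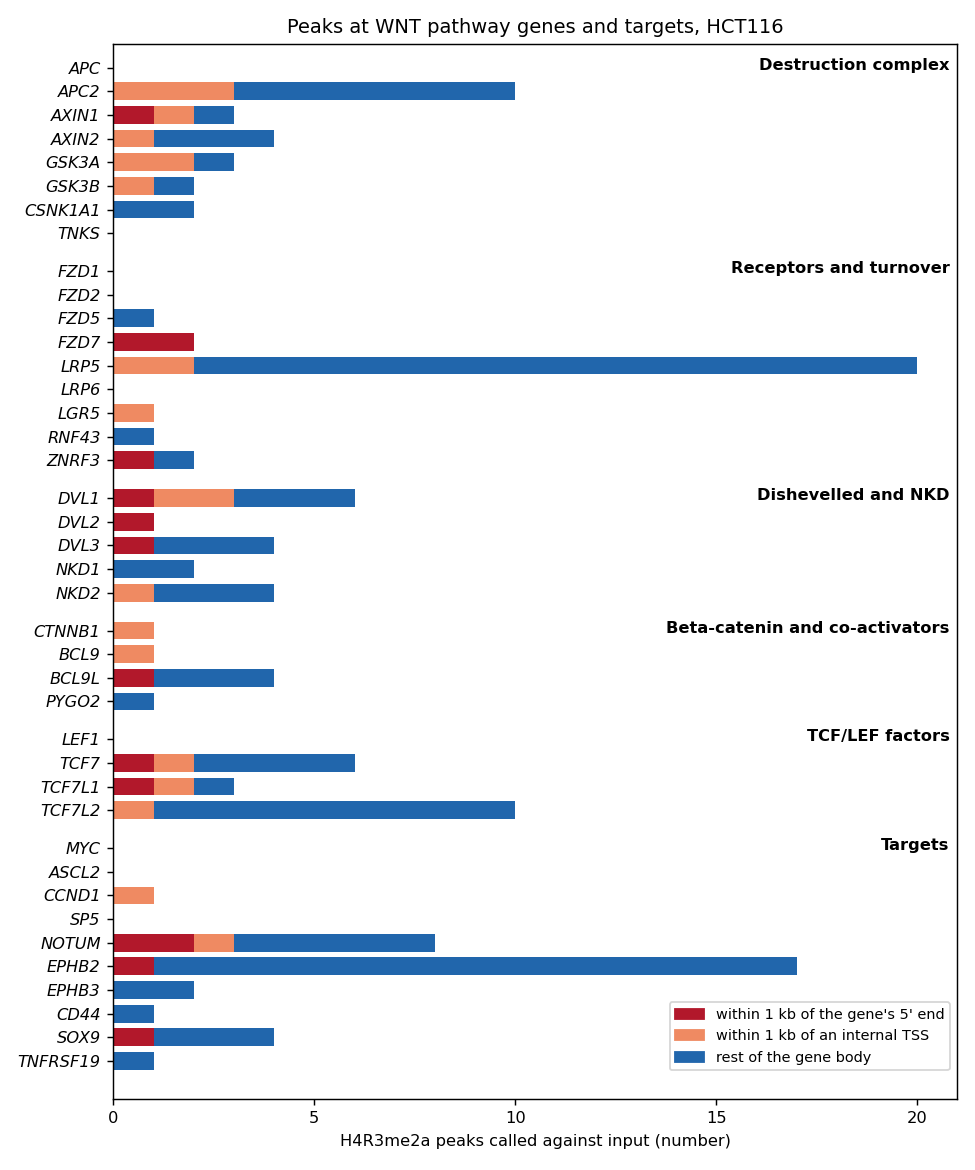
Number of H4R3me2a peaks (horizontal axis) called against input at each of the 40 genes, ordered by role in the pathway, with bars coloured by where the summit lay. LRP5 (20 peaks), EPHB2 (17), APC2 (10) and TCF7L2 (10) have the longest bars, and 9 genes have no bar.

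The peaks were unevenly spread. The genes LRP5, EPHB2, APC2 and TCF7L2 together held 57 of the 128 peaks (44.5%), while 10 genes had a single peak. Of the 128 summits, 93 (72.7%, 64.1 to 80.2%) were in the body class, 21 (16.4%) near an internal TSS and 14 (10.9%, 6.11 to 17.7%) at a 5' end. Over all protein-coding genes the body class took 61.9% of assignments, internal TSSs 22.7% and 5' ends 15.4%. The intervals for summits treat them as independent, although many shared a gene. LRP5 alone gave 18 of the 93 body summits and EPHB2 16, so the difference in body share leans on these genes. Placed on the canonical transcripts, 94 of the 128 summits (73.4%) lay in introns, 21 in coding exons, 5 in 3' UTRs and 4 in 5' UTRs.

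The 40 genes were richer in GC, longer and richer in TSSs than the median gene. Their annotated bodies had a median GC content of 51.8%, against 45.3% for all protein-coding genes, a median length of 35.1 kb against 27.5 kb, and a median of 6.26 kb of sequence near a TSS against 4.63 kb. Among genes of 50% GC or more, 20 of 24 members had a peak (83.3%, 62.6 to 95.3%), beside 69% of all such genes. Among genes under 50% GC, 11 of 16 members did (68.8%, 41.3 to 89%), beside 36.4%. In genes of 50 kb or more the numbers were 15 of 19 and 52.1%, and in shorter genes 16 of 21 and 44.7%. Across the 40 genes, peaks per 10 kb of gene and flanks had a Spearman rho of 0.53 with gene GC content, and over all 19970 genes the rho was 0.51. By class, GC-rich members had a 5'-end peak in 10 cases (41.7%, beside 28.7%), an internal-TSS peak in 10 (41.7%, beside 35.8%) and a body peak in 17 (70.8%, beside 51.2%). For members under 50% GC these were 2 (12.5%, beside 14.5%), 6 (37.5%, beside 9.43%) and 8 (50%, beside 23.7%). In members of 50 kb or more they were 4 (21.1%, beside 18.2%), 8 (42.1%, beside 17.2%) and 12 (63.2%, beside 40.7%). In shorter members they were 8 (38.1%, beside 19.7%), 8 (38.1%, beside 18.6%) and 13 (61.9%, beside 28.7%). The rho values are across genes of 1 library, which share its depth, and are given as descriptions. The part of GC content, length and TSS number in the counts above was not tested.

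**Figure D2:**
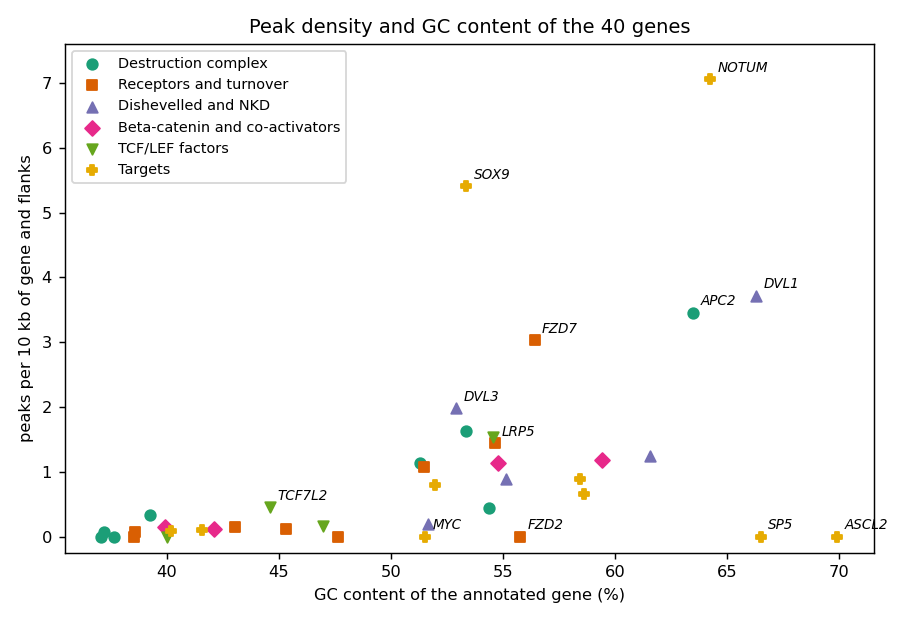
Peaks per 10 kb of gene and 1 kb flanks (vertical axis) against GC content of the annotated gene in percent (horizontal axis), 1 point per gene, with shape and colour giving the role. Genes under 45% GC all lie at or below 0.456 peaks per 10 kb, NOTUM (7.06) and SOX9 (5.41) are highest, and FZD2, MYC, SP5 and ASCL2 lie at 0 despite a GC content above 50%.

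Of the 8 genes of the destruction complex, 6 had a body peak (75%, 34.9 to 96.8%, beside 32.8% of all genes), 5 an internal-TSS peak (62.5%, 24.5 to 91.5%, beside 18.1%) and 1 a 5'-end peak (12.5%, beside 19.2%). Body summits made up 62.5% of their 24 peaks, close to the 61.9% over all protein-coding genes. That peak was at AXIN1, the scaffold of the complex (chromosome 16, 351880 to 352127), with its summit 663 bp downstream of the 5' end in intron 1. It was 248 bp wide, with a pileup of 10 fragments over a background of 0.697, a fold of 6.48 and a −log10 q of 4.83. It is the AXIN1 stretch printed above. Its other peaks lay deep in the gene, at 74.4% and 90.2% of its length, with folds of 4.19 and 2.95. AXIN2, the second scaffold and itself a WNT target, had 4 peaks with folds of 3.71 to 4.21, none within 1 kb of the 5' end. All but the AXIN2 peak of fold 3.71 also lay in or near another annotated protein-coding gene.

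APC2, a paralogue of APC, had 10 peaks in 26.9 kb. APC, the tumour suppressor that binds beta-catenin in the complex, had none in 138.7 kb, and the nearest summit to it lay 152.7 kb upstream. The APC2 peak of highest fold was in coding exon 15 (chromosome 19, 1465639 to 1465810), 172 bp wide, with a pileup of 13 over a background of 1.43, a fold of 5.77 and a −log10 q of 4.69. Exon 15 held 4 coding summits and a further one in the 3' UTR. These 5 summits also lay in the annotated gene C19orf25, and the files cannot say which gene they belong to. The highest fold at an internal TSS in the complex was also at APC2 (chromosome 19, 1452753 to 1453249), with 12 fragments over 1.54, a width of 497 bp, a fold of 5.13 and a −log10 q of 3.81. The canonical transcript of APC2 starts 3819 bp inside the gene record, and summits lay 174 and 468 bp downstream of that start, with folds of 3.37 and 5.0.

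The kinases of the complex had 2 or 3 peaks each, at percentiles 77.6 to 85.3 of protein-coding genes by peak number. GSK3A had 3, with folds of 2.95 to 3.83, and its paralogue GSK3B had 2 in 273.7 kb, with folds of 4.71 and 4.12. All but the GSK3A peak of fold 3.83 also lay in or near another annotated protein-coding gene, a limit that does not hold for GSK3B. CSNK1A1, the casein kinase that primes beta-catenin for GSK3, had 2 intronic peaks with folds of 4.93 and 4.5. The body peak of GSK3B and both peaks of CSNK1A1 lay in repeated sequence, where 60.9 to 77.5% of the 32-mers within 100 bp of the summit occur more than once in the genome. TNKS, the tankyrase that marks AXIN for degradation, had no peak in 226.4 kb, and the nearest lay 408.8 kb away.

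At the receptors the 2 co-receptors stood at opposite ends of the list. LRP5 had 20 peaks in 136.7 kb (95% Poisson interval 12.2 to 30.9), which put it at percentile 99.7 of protein-coding genes by peak number and at percentile 87.0 by peaks per 10 kb, and LRP6 had 0 in 151 kb (upper bound 3.69). LRP5 has a GC content of 54.6% and LRP6 of 38.5%. None of the LRP5 peaks was within 1 kb of the 5' end. They were spread over 129.5 kb, 5 of them in intron 1, 3 in intron 5, 3 in intron 7 and the rest in other introns and in coding exons 2 and 6, with folds of 3.51 to 6.48 and pileups of 7 to 14. The highest was in intron 1. The higher of its 2 internal-TSS peaks (chromosome 11, 68446259 to 68446480) was 222 bp wide, with 10 fragments over 1.52, a fold of 4.36 and a −log10 q of 2.68.

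The Frizzled receptors are single-exon or nearly single-exon genes of 3.78 to 7.31 kb here. FZD7 had a peak on either side of its start. The upstream one (chromosome 2, 202033039 to 202033179, 141 bp) had its summit at −777 bp relative to the 5' end, with 8 fragments over 1.54, a fold of 3.55 and a −log10 q of 1.68. The other (chromosome 2, 202034141 to 202034290, 150 bp) lay 392 bp into the 5' UTR, with 6 fragments over 0.713, a fold of 4.09 and a −log10 q of 2.0. FZD5 had a coding peak of fold 3.92, and FZD1 and FZD2 had none.

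ZNRF3 and RNF43 are ubiquitin ligases that remove Frizzled from the cell surface, and LGR5 is the R-spondin receptor that opposes them. ZNRF3 had a peak at −576 bp relative to its start (chromosome 22, 28882918 to 28883045, 128 bp), resting on 5 fragments over 0.697, with a fold of 3.53 and a −log10 q of 1.41, the lowest among the 128 peaks and shared by 6 of them. It also had an intronic peak of fold 4.12. LGR5 had 1 peak, 1027 bp from its 5' end and 790 bp from an internal TSS, also of 5 fragments and a fold of 3.53. RNF43 had 1 peak of fold 3.68, in intron 3, which also lay in or near another annotated protein-coding gene. These 3 genes of receptor turnover had 4 peaks, and those of LGR5 and ZNRF3 at 5 fragments were at the lowest pileup in the authors' list. The LGR5 summit also lay in the annotated neighbour TSPAN8.

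All 5 genes of the Dishevelled group had a peak (47.8 to 100%, beside 47.2% of all genes), and 3 of them, the Dishevelled genes themselves, had one at the 5' end (60%, 14.7 to 94.7%, beside 19.2%). DVL1, DVL2 and DVL3 code for the adaptor proteins that carry the signal from the receptors. The DVL1 peak (chromosome 1, 1348739 to 1348885, 147 bp) lay 623 bp downstream of the 5' end, with 8 fragments over 1.04, a fold of 4.42 and a −log10 q of 2.49. The DVL2 peak (chromosome 17, 7233915 to 7234056, 142 bp) lay 523 bp downstream, with 9 fragments over 1.45, a fold of 4.08 and a −log10 q of 2.29. It was the only peak of that gene. The DVL3 peak (chromosome 3, 184155654 to 184155791, 138 bp) lay 290 bp downstream in coding exon 1, with 7 fragments over 0.888, a fold of 4.24 and a −log10 q of 2.19. The 3 peaks were similar in height, and each also lay within 160 bp of another annotated TSS of its gene.

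The highest fold among all 128 peaks was at the other end of DVL3, in the 3' UTR of exon 15 (chromosome 3, 184171264 to 184171459). It was 196 bp wide, with a pileup of 17 over a background of 1.51, a fold of 7.17 and a −log10 q of 7.40. A pair of peaks in coding exons 14 and 15 lay close by, so that 3 of the 4 DVL3 summits fell between 80.6% and 87.8% of the gene. DVL1 had 6 peaks in 14.1 kb, or 3.72 per 10 kb, with folds of 2.75 to 5.48. NKD1 and NKD2, inhibitors that bind Dishevelled, had 2 and 4 peaks and none at the 5' end. For NKD2 a further summit of fold 5.51 from 12 fragments lay at −2367 bp, outside the window. The NKD2 peak at an internal TSS (chromosome 5, 1009625 to 1010145, 521 bp) lay 1064 bp from the 5' end, with 12 fragments over 1.52, a fold of 5.17 and a −log10 q of 3.86.

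**Figure D3:**
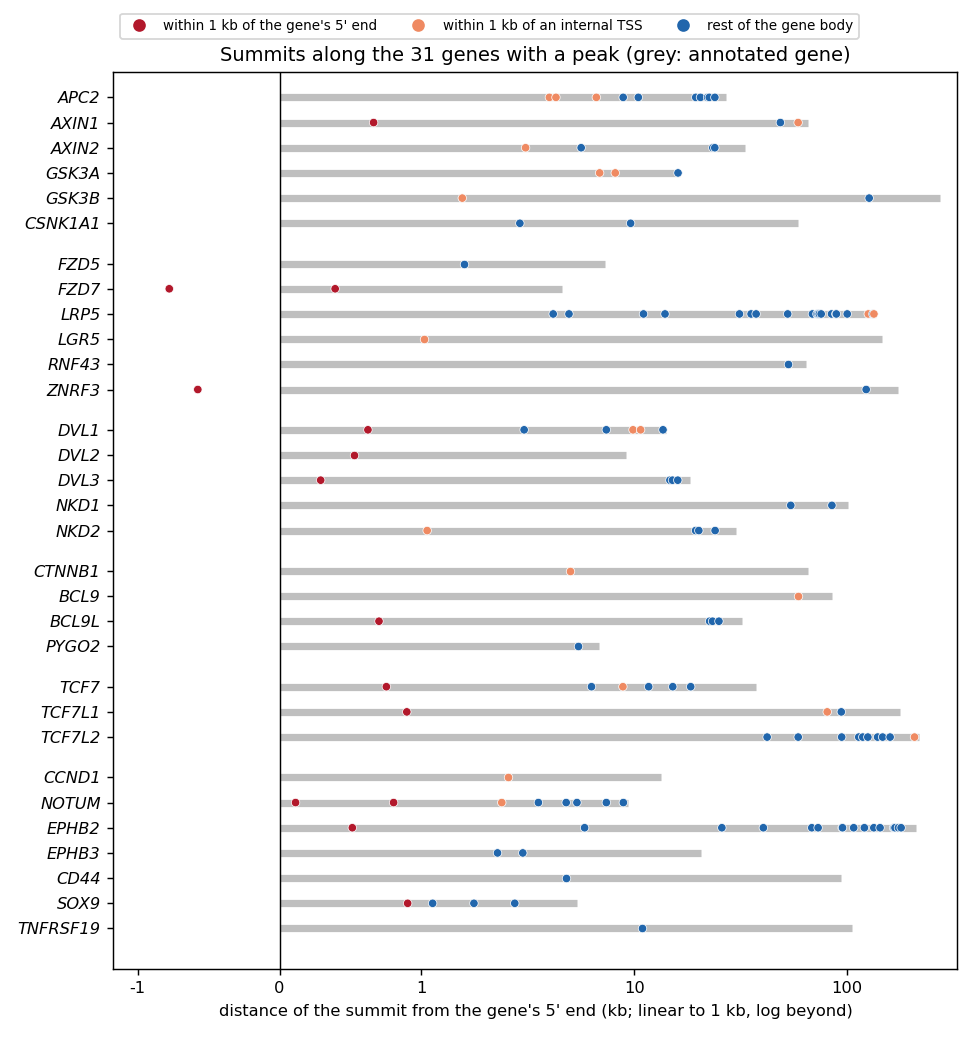
Distance of each summit from the annotated 5' end of its gene in kb (horizontal axis, linear to 1 kb and logarithmic beyond, negative upstream), for the 31 genes with a peak, in the order of their roles. Grey bars are the annotated genes. At FZD7 and ZNRF3 a summit lies upstream of the start, and elsewhere all summits lie downstream.

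CTNNB1, the beta-catenin gene, had 1 peak (chromosome 3, 41199570 to 41199816, 247 bp). Its summit lay 4991 bp inside the gene record and thus in the internal-TSS class, but only 227 bp downstream of the start of the canonical transcript. The pileup was 9 over a background of 0.697, with a fold of 5.89 and a −log10 q of 4.05. BCL9 and BCL9L link beta-catenin to PYGO proteins, which read histone H3 methylation. BCL9L had the widest peak of the 128, at 829 bp (chromosome 11, 118925008 to 118925836), 701 bp downstream of the 5' end, with 12 fragments over 1.02, a fold of 6.42 and a −log10 q of 5.13. This peak also lay within reach of the neighbouring gene UPK2. BCL9L had a further 3 peaks in coding exons 6 and 8, the highest of which (chromosome 11, 118902538 to 118902685, 148 bp) had 14 fragments over 2.56, a fold of 4.21 and a −log10 q of 3.23. BCL9 had 1 peak, of fold 4.09 from 6 fragments, at an internal TSS 58760 bp from the 5' end, and PYGO2 had 1 of fold 3.88 in its 3' UTR.

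Among the DNA-binding factors, TCF7, TCF7L1 and TCF7L2 had 6, 3 and 10 peaks, and LEF1 had none in 121.4 kb. The nearest summit to LEF1 lay 3.71 kb beyond its end. TCF7 had the highest pileup of its group, 18 fragments over 2.33, at an internal TSS in intron 3 (chromosome 5, 134123391 to 134123640, 250 bp), with a fold of 5.70 and a −log10 q of 5.79. Its 5'-end peak (chromosome 5, 134115307 to 134115488, 182 bp) lay 753 bp downstream, with 10 fragments over 1.54, a fold of 4.34 and a −log10 q of 2.65. Its highest body peak (chromosome 5, 134126186 to 134126391, 206 bp) had 13 fragments over 1.64, a fold of 5.30 and a −log10 q of 4.20. The 5'-end peak of TCF7L1, a mainly repressive member of the family, lay 897 bp downstream (chromosome 2, 85134208 to 85134351, 144 bp), with 11 fragments over 1.62, a fold of 4.58 and a −log10 q of 3.10.

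TCF7L2, the main family member in the intestinal epithelium, had no peak within 1 kb of its 5' end. A summit of fold 4.35 from 8 fragments lay at −2706 bp, outside the window. All 10 assigned summits of TCF7L2 were intronic, 7 of them in intron 5. They had folds of 3.28 to 5.23 and a spacing of 13.9 kb in the median. The one with the highest fold lay in sequence whose central 32-mer occurs 35 times in the genome, and 43.8% of the 32-mers within 100 bp of its summit are repeated. At another, of fold 4.17, 56.2% of these 32-mers are repeated, though the central one occurs once. The 10 peaks of TCF7L2 were spread over 165.3 kb, whereas 8 peaks of NOTUM filled 8.77 kb.

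Of the 10 genes taken as targets alone, 7 had a peak (70%, 34.8 to 93.3%, beside 47.2% of all genes). At the 5' end there were 3 (30%, beside 19.2%), at an internal TSS 2 (20%, beside 18.1%) and in the body 6 (60%, beside 32.8%), and each of these all-gene shares lies inside the interval of its count. NOTUM, a secreted enzyme that inactivates WNT ligands, was the densest of the 40 genes at 7.06 peaks per 10 kb, and 42 of 19970 protein-coding genes were denser. It had 2 peaks in the 5'-end class. The first (chromosome 17, 81961661 to 81962329, 669 bp) lay 113 bp downstream of the 5' end, with 15 fragments over 2.11, a fold of 5.14 and a −log10 q of 4.43. The other (chromosome 17, 81960964 to 81961184, 221 bp) lay 804 bp from the 5' end and 151 bp downstream of the canonical start, with 16 fragments over 2.06, a fold of 5.55 and a −log10 q of 5.13. The remaining 6 had folds of 3.18 to 4.88, and a further peak of fold 6.07 lay at −2251 bp, outside the window.

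SOX9, a transcription factor of crypt base cells, had 4 peaks in 5.40 kb and a density of 5.41 per 10 kb. The peak in its 5'-end class (chromosome 17, 72121827 to 72121959, 133 bp) lay 903 bp downstream in intron 1, with 16 fragments over 2.14, a fold of 5.42 and a −log10 q of 4.99. The next summit, 1129 bp downstream with a fold of 3.37, fell just beyond the window and counted as body.

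EPHB2 and EPHB3, Ephrin receptors that position cells along the crypt, had 17 and 2 peaks. The 5'-end peak of EPHB2 (chromosome 1, 22711309 to 22711649, 341 bp) lay 513 bp downstream, with 11 fragments over 1.54, a fold of 4.73 and a −log10 q of 3.23. The other 16 were intronic, 6 of them in intron 3, and the highest (chromosome 1, 22818210 to 22818341, 132 bp) had 11 fragments over 1.17, a fold of 5.54 and a −log10 q of 4.05. Per 10 kb the 2 genes were close, at 0.799 for EPHB2 and 0.884 for EPHB3, since EPHB2 is 210.7 kb long and EPHB3 20.6 kb.

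The remaining targets had a single peak or none. CCND1, the cyclin D1 gene, had 1 peak at an internal TSS (chromosome 11, 69643604 to 69643886, 283 bp), with 9 fragments over 1.30, a fold of 4.36 and a −log10 q of 2.56. CD44, a cell adhesion receptor, and TNFRSF19, a receptor of the TNF family, had 1 intronic peak each, with folds of 4.07 and 5.30. In the TNFRSF19 peak 50.3% of the 32-mers around the summit occur more than once in the genome. MYC, the growth regulator, ASCL2, the stem cell transcription factor, and SP5, a transcription factor, had no peak in genes of 7.52, 2.09 and 2.74 kb. The nearest summits lay 50.9 kb from MYC, 30.4 kb from ASCL2 and 19.8 kb from SP5. With the 5 pathway components that are themselves targets (AXIN2, LGR5, RNF43, ZNRF3 and NKD1) the targets came to 12 of 15 genes with a peak (80%, 51.9 to 95.7%). Of the other 25 genes, 19 had a peak (76%, 54.9 to 90.6%), and the share over all protein-coding genes was 47.2%.

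**Figure D4:**
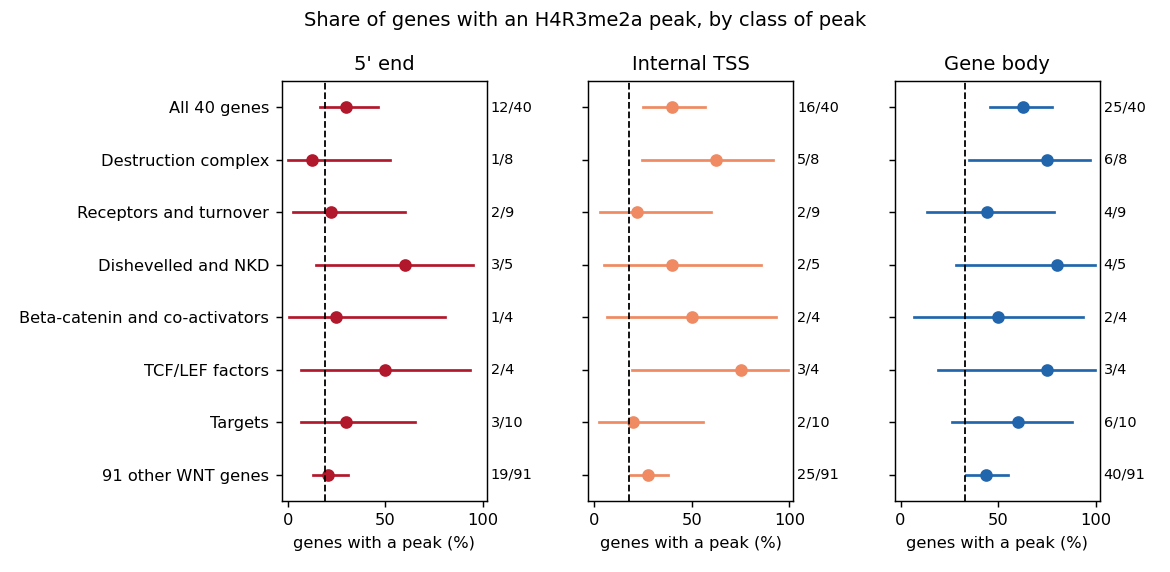
Share of genes with a peak in percent (horizontal axes), at the 5' end, at an internal TSS and in the gene body, for all 40 genes, each role and 91 other WNT genes. Bars are 95% exact intervals, numbers at the right give genes with a peak over genes in the group, and dashed lines mark 19.2%, 18.1% and 32.8% of all protein-coding genes. The intervals of the 6 roles overlap in every panel.

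By role, the 5'-end class ran from 1 of 8 destruction complex genes (12.5%, 0.316 to 52.7%) to 3 of 5 in the Dishevelled group (60%, 14.7 to 94.7%). The other roles had 2 of 9 receptor genes, 1 of 4 of beta-catenin and its co-activators, 2 of 4 TCF/LEF factors and 3 of 10 targets. The share over all protein-coding genes, 19.2%, lies inside the interval of every role. For internal TSSs the ends of the range were 2 of 10 targets (20%, 2.52 to 55.6%) and 3 of 4 TCF/LEF factors (75%, 19.4 to 99.4%), beside 18.1%. Body peaks ran from 4 of 9 receptor genes (44.4%, 13.7 to 78.8%) to 4 of 5 in the Dishevelled group (80%, 28.4 to 99.5%), beside 32.8%. Between them were 2 of 4 of beta-catenin and its co-activators, 6 of 10 targets, 6 of 8 destruction complex genes and 3 of 4 TCF/LEF factors. With 4 to 10 genes a role, all these intervals overlap, and no order among the roles can be read from them.

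Paralogues within the pathway were set side by side. In 9 of 11 families of paralogues among the 40 genes the member with the highest GC content also had the most peaks per 10 kb, a grouping made after the values were seen. It uses the same genes and values as the correlation with GC content above and is not a separate check of it. In the EPHB family the densities were close, at 0.884 and 0.799. DVL1 (66.3% GC) had 3.72 peaks per 10 kb, DVL3 (52.9%) 1.98 and DVL2 (55.1%) 0.895. NKD2 (61.6%) had 1.24 and NKD1 (51.7%) 0.194. BCL9L (59.4%) had 1.17 and BCL9 (42.1%) 0.115. The exceptions were AXIN2, denser than AXIN1 with 51.3% GC against 54.4%, and RNF43, denser than ZNRF3 with 43.0% GC against 45.3%. RNF43 had 0.152 peaks per 10 kb and ZNRF3 0.114, from only 1 and 2 peaks.

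At the 5' ends most summits lay downstream of the outermost annotated start. Of the 14, 12 were downstream (85.7%, 57.2 to 98.2%), at 113 to 903 bp with a median of 643 bp. Over all protein-coding genes 73.9% of 4387 such summits were downstream, which lies inside that interval, with a median of 518 bp. All these distances are from the outermost annotated start, and the class took that start first when another was also within 1 kb. Nearer another annotated start of the gene lay the summits of AXIN1, DVL1, DVL2, DVL3, BCL9L, TCF7, TCF7L1 and EPHB2. The same held for the NOTUM summit at 804 bp, so the class is not distinct from internal TSSs at these genes. Summits of the 5'-end class had a median GC content of 72.3% within 200 bp and an observed-over-expected CpG frequency of 0.81, against 65.1% and 0.65 for all genes. Internal-TSS summits of the 40 genes had 64.3% and 0.39, against 61.8% and 0.34. Body summits had 60.3% and 0.29, against 58.6% and 0.28.

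The depth behind these calls was low. The median pileup of the 128 peaks was 10 fragments (range 5 to 19) over a median background of 1.54 fragments, with a median fold of 4.25 and folds of 2.75 to 7.17. The medians over all peaks were 10, 1.54 and 4.18. A −log10 q of 5 or more was reached by 4 of the 128 peaks, 1 each at DVL3, TCF7, BCL9L and NOTUM, or 3.12% beside 3.84% of all peaks. The lowest pileup among called peaks was 5 where the background was under 0.8 fragments and 11 where it was 3.2 to 4.5, and a weaker mark at a gene without a peak was not detectable at this depth. A fold of equal size also rests on different counts: the background was at or near its lowest value of 0.697 fragments at 10 of the 128 peaks, among them those of AXIN1, CTNNB1, LGR5 and TNFRSF19.

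**Figure D5:**
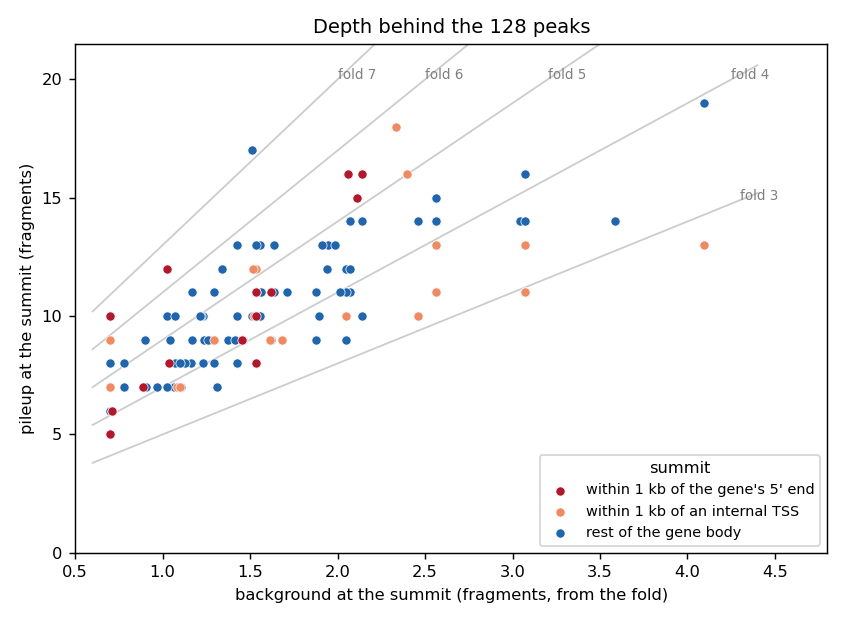
Pileup at the summit (vertical axis, fragments) against the background recovered from the fold (horizontal axis, fragments) for the 128 peaks, coloured by class, with grey lines of equal fold. The DVL3 peak at 17 fragments over 1.51 lies highest in fold, and 5'-end peaks run from 5 to 16 fragments, internal-TSS peaks from 5 to 18 and body peaks from 6 to 19.

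The letters of the TCF/LEF binding motif occurred around these summits at a share near that of all peaks. CTTTGAA or CTTTGAT, on either strand, occurred in the 300 bp around the summit in 4 of the 128 peaks (3.12%, 0.858 to 7.81%). Over all peaks it was 1495 of 33349 (4.48%), which lies inside that interval. The 4 were peaks of FZD7, LRP5, RNF43 and NOTUM. The matches in the gene bodies of LRP5, RNF43 and NOTUM are shown with their surroundings, since they are intronic places where these letters lie near a summit, on the strand of each gene and with the motif or its reverse complement in capitals.
LRP5 chr11:68444830-68444870 plus strand: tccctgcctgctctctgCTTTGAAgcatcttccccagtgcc
RNF43 chr17:58364790-58364830 minus strand: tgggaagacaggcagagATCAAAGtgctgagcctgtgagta
NOTUM chr17:81958170-81958210 minus strand: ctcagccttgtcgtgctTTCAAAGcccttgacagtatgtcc
Their peaks had folds of 4.73, 3.68 and 3.98. The LRP5 letters lay inside the called interval, and those of RNF43 and NOTUM lay outside it. A match is a description of letters, and no binding was measured here.

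The 91 other WNT genes of a wider list had a peak in 49 cases (53.8%, 43.1 to 64.4%), beside 47.2% of all protein-coding genes. Of these 91 genes, 19 had a 5'-end peak (20.9%, 13.1 to 30.7%, beside 19.2%), 25 an internal-TSS peak (27.5%, 18.6 to 37.8%, beside 18.1%) and 40 a body peak (44%, 33.6 to 54.8%, beside 32.8%). The shares with any peak and with a 5'-end peak were near those of all genes, which lie inside their intervals. Ligands and their secretion factors had 14 of 25, other receptors 5 of 12, secreted inhibitors 5 of 14, planar polarity genes 5 of 8, cytoplasmic regulators 8 of 17 and nuclear co-factors 12 of 15. The genes with the most peaks were CTBP2, a co-repressor (18), CSNK1D, a casein kinase (15), CELSR1, a planar polarity cadherin (14), and PTK7, a pseudokinase receptor, and WNT7B, a ligand (12 each). At 5' ends the highest folds were at FBXW11, a subunit of the ligase that degrades beta-catenin (7.08), DAAM1, a formin of planar polarity (6.48), WNT9A (5.83), CBY1, a beta-catenin antagonist (5.69), and CSNK1D (5.25). Of 10 markers of colon epithelium, 7 had a peak, and CDX2, KRT18 and KRT20 had none, but the files hold no expression and these counts do not check the identity of the cells.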

How the data were processed

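The labels give 1 H4R3me2a library and 1 input library from HCT116 cells. The submitters' processing notes name Bowtie2, MACS2, deepTools and GRCh38 but no versions, and parameters and library sizes were not given in the labels. The authors' deposited table holds, per peak, the signal at the summit (pileup of fragments, whole numbers), the fold enrichment and −log10 of p and q. The fold is a ratio of pileup over local background, with 1 added to each. The deposited interval list repeats fold, p-value and q-value in all 33353 peaks, with a score. These are the authors' values and were used to describe and filter peaks within the list.

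The background was recovered as (pileup + 1) / fold − 1, and a Poisson tail computed from it matched the deposited −log10 p within 0.05 in all 33353 peaks. Summits were placed in GENCODE release 44, with 4 mitochondrial peaks left out. All peaks on chromosomes 1 to 22 and X lay within the GRCh38 sequence used. Each summit took the class 5' end (within 1 kb of the outermost annotated start), internal TSS (within 1 kb of another start) or body, and a summit in more than 1 gene counted for each. Shares have 95% Clopper-Pearson intervals and counts Poisson intervals, for counting error only. The assignment was tested on simulated data. Python 3.11.15, pandas 2.3.3, numpy 2.4.6 and scipy 1.17.1 were used.

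The rule for named genes took every 5'-end peak and the highest-fold internal-TSS and body peak of each role in full, and other members by their number of peaks. The sequence and position of the LRP5 body peak of highest fold are not reported here. The genes and lists were chosen with earlier results of these data known. Alternatives were other TSS windows, stricter peaks, merging, canonical starts, starts of protein_coding transcripts, summits in a single coding gene and interval overlap.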

Additional observations from a re-analysis of the deposited data

How the results depend on the processing

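Of 72 values from 8 counts under 9 alternatives, 57 stayed within 1.5 times the reported count. The number of genes with any peak was 26 to 31 of 40 (65 to 77.5%) under every alternative but the strictest. The share over all genes was 38.5 to 49.2% under the same alternatives. Keeping peaks whose −log10 q reached 5, 4 genes had a peak (10%, beside 5.25% of all genes), 2 of them at the 5' end, 1 at an internal TSS and 1 in the body, from 4 peaks in all, of which 2, 1 and 1 fell in these classes. With a TSS window of 500 bp, 3 genes had a 5'-end peak (7.5%, beside 9.83%), from 3 peaks. With a window of 3 kb, 21 genes did (52.5%, beside 30.8%), with 34 peaks in the 5'-end class and 34 in the internal-TSS class. With a fold of 4 or more, 8 genes had an internal-TSS peak (20%, beside 13.2%), from 9 peaks. With canonical starts the genes with a 5'-end peak were 14 (35%, beside 21.4%), the same 12 with CTNNB1 and APC2. Summits just outside the 1 kb window included a pair at −1673 and −2177 bp from the start of DVL2, with folds of 5.35 and 6.66. No paired analysis was possible because each group has 1 library, and for the same reason no replicate could be left out.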
